A study of Mus musculus with 531 samples.

Results

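A set of 7 genes with high read counts in the epiblast of the mouse embryo at E4.5, and little written about them in that tissue, were followed to E5.5 and E6.5. They were Igfbp2, Trh, Aire, Exoc3l, Morc1, Slc7a3 and Tmsb4x, 7 of the 22084 genes in the deposited count table. They were selected on their E4.5 reads, higher in epiblast than in endoderm cells of these same embryos, so that contrast describes how they were chosen and is not a finding. The values that follow were read counts per gene in single cells by Smart-seq2, from scM&T-seq, in which the RNA and the DNA methylation of 1 cell are both sequenced. The bisulfite reads are not analysed here. All embryos were of the C57Bl/6Babr strain and untreated. The outer trophectoderm had been removed from the E4.5 blastocysts by immunosurgery, and the extraembryonic part had been cut away at E5.5 and E6.5. By the labels there were 5 embryos at E4.5 (91 cells; the paper counts fewer embryos), a single embryo at E5.5, labelled embryo 7 (80 cells), and 2 at E6.5 (93 cells). Of these, 75, 59 and 83 cells had 50000 reads or more on at least 2000 genes and were used.

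The epiblast is the pluripotent tissue of the embryo from which the fetus arises. Between implantation and gastrulation it passes from a naive state, marked by Nanog, Klf4 and Esrrb, to a formative and then primed state, in which Dnmt3b and Fgf5 are high. The primitive endoderm forms beside it in the blastocyst and gives rise to the yolk sac endoderm. The genes followed here belong to different processes. Igfbp2 encodes a secreted protein that binds insulin-like growth factors. Trh encodes the precursor of thyrotropin-releasing hormone, best known from the hypothalamus. Aire is a regulator of transcription that makes the thymus express genes of other tissues. Morc1 encodes an ATPase of the MORC family, needed in male germ cells to silence transposons. Slc7a3 encodes a transporter of cationic amino acids such as arginine and lysine. Exoc3l encodes a relative of a subunit of the exocyst, the complex that tethers secretory vesicles to the cell membrane. Tmsb4x, on the X chromosome, encodes thymosin beta 4, which binds actin monomers.

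Of these genes, 4, Igfbp2, Trh, Aire and Tmsb4x, had an entry in a RefSeq table of promoters (build GRCm38.p6). The 250 bases before each RefSeq start are shown as the start regions of genes whose later course differed, with CG, the site of DNA methylation, in capitals. CG reads the same on both strands. For Igfbp2, on the plus strand, there were 2 entries, of which the first is chr1:72824230-72824479 with 14 CG. The others lie on the minus strand, at chr6:92244651-92244900 for Trh with 25 CG, chr10:78043611-78043860 for Aire with 11 CG, and chrX:167209219-167209468 for Tmsb4x with 15 CG. The Tmsb4x stretch lies partly inside the gene as placed by GENCODE, which reaches chrX:167209315.
Igfbp2: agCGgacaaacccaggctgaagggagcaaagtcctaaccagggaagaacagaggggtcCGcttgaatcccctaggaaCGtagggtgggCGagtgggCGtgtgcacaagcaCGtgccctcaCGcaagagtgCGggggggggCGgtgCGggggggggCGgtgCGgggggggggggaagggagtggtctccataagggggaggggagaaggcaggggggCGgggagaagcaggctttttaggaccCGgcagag
Trh: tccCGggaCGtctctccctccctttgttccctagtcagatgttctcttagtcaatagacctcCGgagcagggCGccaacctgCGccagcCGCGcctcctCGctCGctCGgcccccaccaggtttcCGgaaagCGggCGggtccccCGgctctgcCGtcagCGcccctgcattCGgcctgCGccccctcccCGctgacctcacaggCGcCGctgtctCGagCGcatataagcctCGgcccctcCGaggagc
Aire: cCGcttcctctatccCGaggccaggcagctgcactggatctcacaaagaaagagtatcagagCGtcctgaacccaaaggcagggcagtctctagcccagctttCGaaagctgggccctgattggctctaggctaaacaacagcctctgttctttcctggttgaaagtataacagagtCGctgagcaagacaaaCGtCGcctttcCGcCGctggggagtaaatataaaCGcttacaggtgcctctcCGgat
Tmsb4x: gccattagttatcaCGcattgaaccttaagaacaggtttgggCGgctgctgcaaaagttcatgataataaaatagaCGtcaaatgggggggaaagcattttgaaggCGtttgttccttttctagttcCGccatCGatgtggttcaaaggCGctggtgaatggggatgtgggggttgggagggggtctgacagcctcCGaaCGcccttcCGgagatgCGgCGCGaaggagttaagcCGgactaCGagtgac
Among 32851 promoters in the table, the median was 6 CG in these 250 bases. At least 25 CG, as before Trh, stood in 10.7% of promoters, and at least 11 CG, as before Aire, in 35.6%. A second entry of Igfbp2 held 11 CG. Exoc3l, Morc1 and Slc7a3 had no entry.

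Cells were clustered within each stage without the 7 genes and named for lists of markers. Of the E4.5 cells, 24 had an epiblast-like and 51 an endoderm-like profile. Epiblast-like cells numbered 38 at E5.5, where 8 of the other 21 had the endoderm markers Amn, Apoa1, Cubn and Dab2. The E6.5 cells split into an epiblast-like set of 29, an endoderm-like set of 15, a mesoderm-like set of 23, all from embryo 2, and 16 that were left unnamed. The epiblast-like name at E6.5 rests on 6 of 9 epiblast markers raised over the other cells of the stage, with 0 of 13 endoderm and 2 of 8 trophectoderm markers raised. None of those markers was among its 10 leading genes, which included Gjb5 and Wnt7b, and Elf5, a gene of the trophoblast lineage, had reads in 25 of its 29 cells. Its epiblast markers summed to 1776.2 and 2090.0 CPM in embryos 1 and 2, less than its endoderm markers. Other stages also held reads of other cell types in their epiblast-like cells. The 13 endoderm markers summed to between 15.6 and 2146.1 CPM, the reads of a gene scaled to a fixed library total, in the epiblast-like cells of the 5 E4.5 embryos, to 11.4 CPM at E5.5, and to 3605.0 and 2842.3 CPM at E6.5, where 13 of 13 had reads. In E4.5 and E6.5 endoderm-like cells they summed to between 6588.5 and 12632.3 CPM. The 8 trophectoderm markers summed to 5.87 to 24.5 CPM at E4.5, 28.9 CPM at E5.5, and 108 and 62.1 CPM at E6.5, where 8 of 8 had reads. Both E6.5 contrasts were repeated on the cells with fewer of these reads, and the values are given after the single genes. The part of these reads at the earlier stages was not tested. The cells labelled E4.5 embryo 5 did not look like 1 embryo: Y-linked genes had more than 10 CPM in 6 of its 14 endoderm-like cells and in 0 of its 4 epiblast-like cells, against 18 of 18 and 6 of 6 in embryo 4. Without embryo 5, the same numbers of the 7 genes were called lower in each comparison of stages, 2, 5 and 2, and Trh alone was also called higher at E6.5 against E5.5. The prefix in the cells' names, which the labels do not explain, differed at each stage and cannot be told apart from the stage.

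At E4.5, all 7 genes had reads in the epiblast-like cells of every embryo, at levels above those of its endoderm-like cells. On the mean log2(CPM + 1) scale, no endoderm-like value reached an epiblast-like value for 7 of 7 genes, as the choice of the genes fixes, against 5.36% of 13338 genes. On the same scale, embryos 1 and 2, whose names share the prefix P1, were above embryos 3 to 5 in the epiblast for 2 of the 7 genes, Aire and Slc7a3, against 6.58% of all genes. The reads of the cells of each embryo and lineage were summed to give the CPM that follow.

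Igfbp2 had 1015.5, 800.1, 600.1, 379 and 924 CPM in the epiblast-like cells of embryos 1 to 5. Its endoderm-like cells had 9.63, 0, 0, 1.22 and 2.55 CPM in the same order. Embryo 4 was the lowest in the epiblast, and still far above every endoderm value. Trh had 223, 171, 169, 138 and 46.7 CPM in epiblast-like cells, with embryo 5 the lowest. A Trh read was found in 1 of 51 endoderm-like cells, from embryo 5. The 2 genes of chromatin and transcription differed in their spread. Aire had 280.3, 277, 177, 79.3 and 102 CPM, and at most 2.41 CPM in endoderm-like cells. Morc1 had 306, 510, 548, 320.4 and 349 CPM and varied less between embryos. Its endoderm-like cells had 0.185, 0.572, 0, 1.78 and 8.82 CPM, so the embryo with mixed Y-linked reads was the highest. Slc7a3 had 863, 693, 627, 299.9 and 599.7 CPM and at most 5.06 CPM in endoderm-like cells. Exoc3l had 269, 272, 229.9, 36.9 and 194 CPM. Embryo 4 stood low for Exoc3l, and a single endoderm value, 0.558 CPM in embryo 4, was above 0. Tmsb4x had 427, 259, 802, 246 and 609 CPM in epiblast-like cells. Its endoderm-like cells had 96.3 CPM in embryo 1, where the median cell had 6.57 CPM and the highest 649 CPM, and 0.778 to 10.8 CPM in the other embryos. Over all 51 endoderm-like cells the median was 0, with reads in 25.

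**Figure D1:**
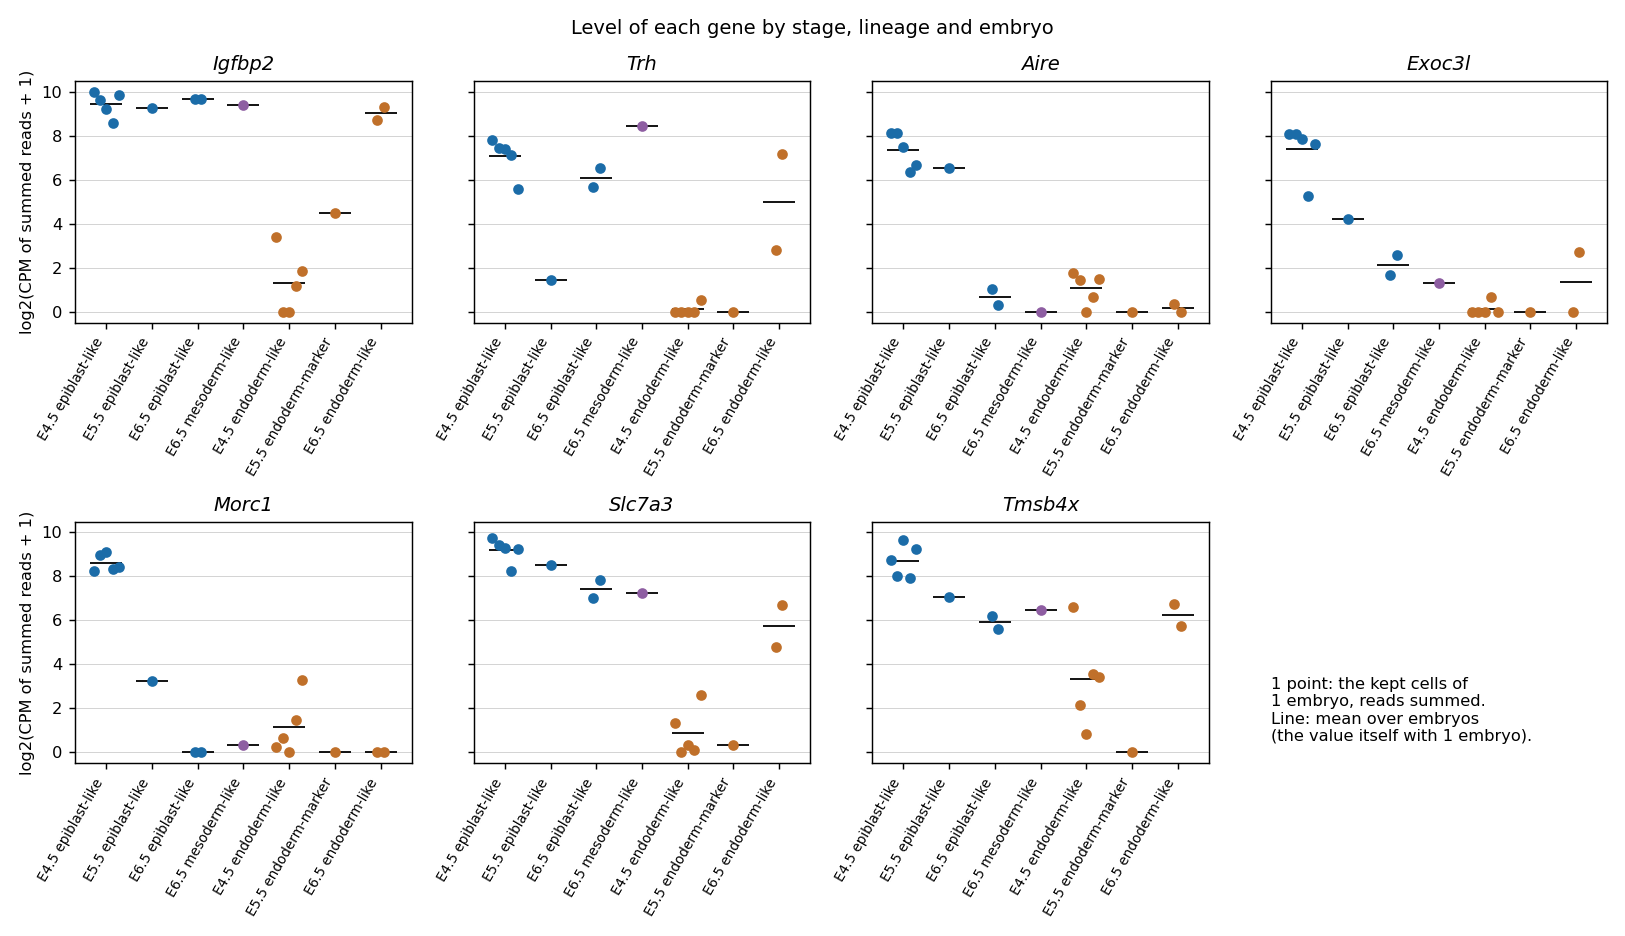
Level of each gene, as log2(CPM + 1) of summed reads, by stage and lineage; each point is 1 embryo and the line is the mean over embryos. Igfbp2 stays near its E4.5 level in the epiblast at both later stages (618 CPM at E5.5, 808 and 806 CPM at E6.5), while Morc1 has 0 reads at E6.5.

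Per kilobase of exon, a scale on which genes can be compared, Igfbp2 was the most abundant of the 7 in E4.5 epiblast-like cells at 403 ± 139 CPM per kb (SD, n = 5 embryos), the 206th of 21907 named genes. It was followed by Tmsb4x at 342 ± 173, Slc7a3 at 163 ± 54, Trh at 108 ± 47.1, Morc1 at 62.7 ± 17.5, Exoc3l at 54.2 ± 26.2 and Aire at 47.9 ± 24.7 CPM per kb. The ranges over embryos of each pair of neighbours in this order overlapped. These levels place even Aire, the lowest, 1151st among named genes.

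Single epiblast-like cells at E4.5 were uniform for some of the genes and uneven for others. Igfbp2, Exoc3l, Morc1, Slc7a3 and Tmsb4x had reads in 24 of 24 cells, Aire in 23 and Trh in 21. Within embryos, the SD of log2(CPM + 1) between cells was 0.68 for Morc1, 0.71 for Slc7a3 and 0.86 for Igfbp2. It was 1.27 for Tmsb4x, 1.55 for Exoc3l, 2.46 for Aire and 2.73 for Trh. The cells that were high for one gene were not in general high for the others: within embryos, Pearson's r over the 24 cells ran from -0.42 for Trh with Tmsb4x to 0.49 for Exoc3l with Slc7a3, with a median of 0.04 over 21 pairs, 13 of them positive. Each cell is a library of its own, of its own depth, and cells of an embryo share that embryo. A weak r is read here as no more than a description.

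**Figure D2:**
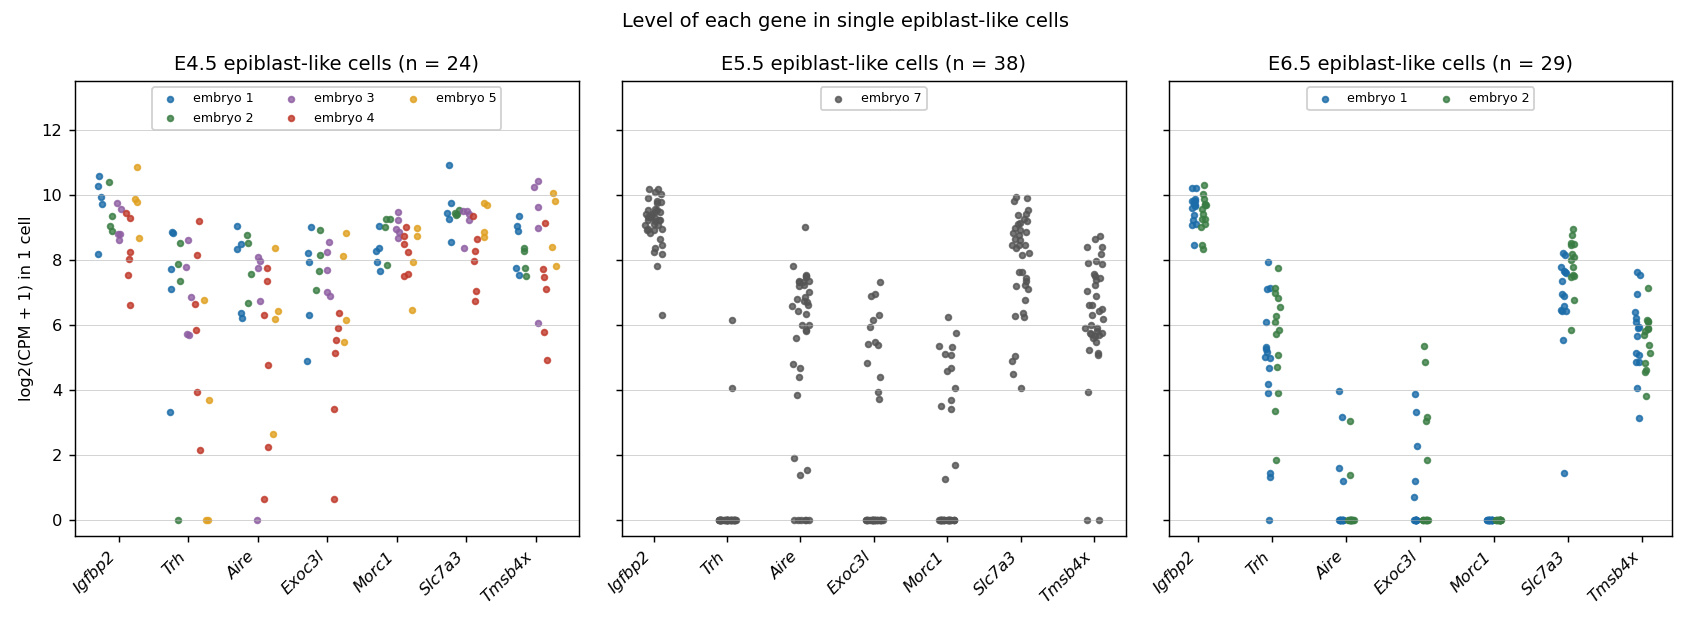
Each point is 1 epiblast-like cell, as log2(CPM + 1), for 24, 38 and 29 cells in order of stage, coloured by embryo. Trh has a read in 21, 2 and 28 cells at the 3 stages and Morc1 in 24, 14 and 0.

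Changes between stages were tested in the epiblast-like cells with summed counts of each embryo as the samples, by the quasi-likelihood test of edgeR, adjusted by Benjamini-Hochberg over 13338 genes, all 7 included. E5.5 was 1 embryo without a replicate, assumed to vary like the embryos of the other stages, so a call at E5.5 places that embryo apart from the others and its own spread was not measured. The E4.5 values had taken part in choosing the genes, so the changes from E4.5 share them. The size of the change from E5.5 to E6.5 does not use them. All stages were in 1 fit, however, so the spread and p of that change rest in part on the E4.5 embryos. A gene picked for a high E4.5 level is more likely to be lower later, so the shares of all genes beside the counts from E4.5 are given for scale and nothing is read from them. Both later stages were compared with the same E4.5 embryos. At E5.5, Trh and Morc1 were lower, 2 of the 7 genes, where 0.315% of all genes were lower, and 0 of 7 were higher, where 0.120% were (also 0 at an unadjusted p under 0.05, by DESeq2 and by limma). At E6.5 against E4.5, Morc1, Aire, Exoc3l, Tmsb4x and Slc7a3 were lower, 5 of 7 where 1.74% of all genes were lower, and 0 of 7 were higher, where 0.690% were (0 at an unadjusted p under 0.05, by DESeq2 and by limma). From E5.5 to E6.5, Morc1 and Aire were lower, 2 of 7 where 0.142% of all genes were lower. No member passed as higher, where 0.0300% of all genes did; Trh was the 1 higher at an unadjusted p under 0.05, the 1 that DESeq2 called, and limma called 0. The median log2 change of the 7 genes was -1.85, -3.04 and -1.20 in these 3 comparisons, and over all genes tested it was 0.00, 0.08 and 0.06. On the mean log2(CPM + 1) scale, the E5.5 value was below all 5 E4.5 values for Trh, Exoc3l, Morc1, Slc7a3 and Tmsb4x, 5 of 7 genes, against 18% of all genes. Both E6.5 values were below all 5 E4.5 values for Aire, Exoc3l, Morc1, Slc7a3 and Tmsb4x, again 5 of 7, against 5.46%.

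**Figure D3:**
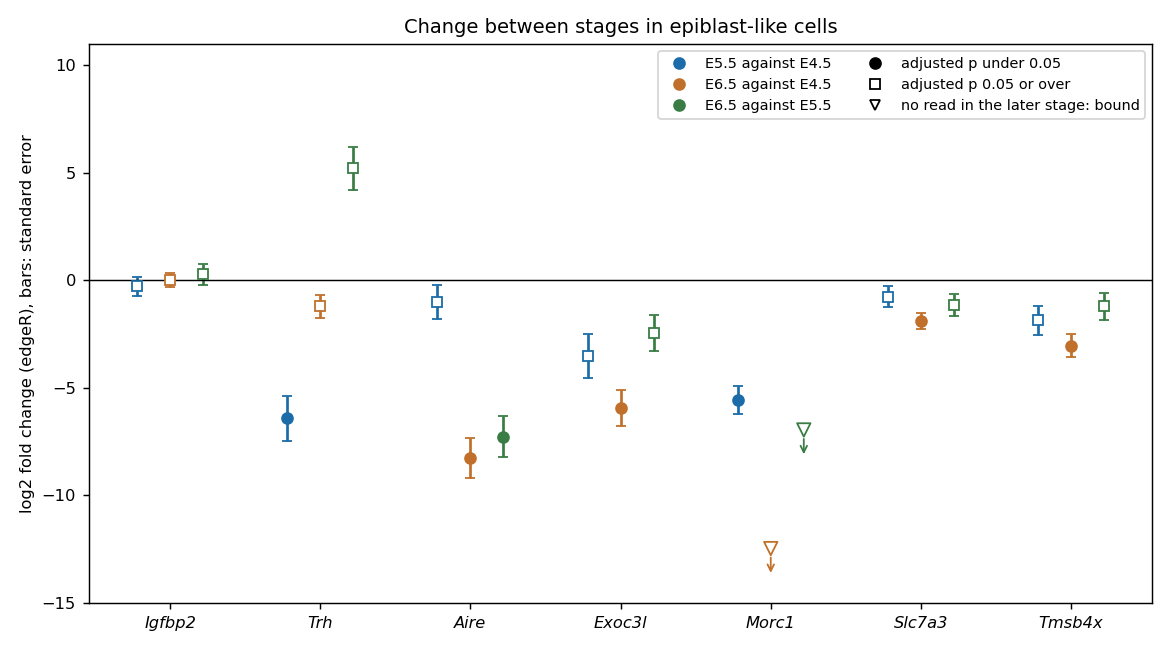
Log2 fold change by edgeR with its standard error for each gene in the 3 comparisons of stages in epiblast-like cells; filled points have an adjusted p under 0.05, open squares do not, and for Morc1 at E6.5, with 0 reads, triangles mark the limit set by 3 counts. Aire is -8.26 at E6.5 from E4.5 and Trh is -6.42 at E5.5 from E4.5.

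Igfbp2 kept reads in every epiblast-like cell, and no change in it passed the test. It lies at chr1:72824503-72852474 on the plus strand (GRCm38, GENCODE vM21, as for the positions below). It had 618 CPM at E5.5 and 808 and 806 CPM in the E6.5 embryos, within the range of the E4.5 embryos, and reads in 38 of 38 and 29 of 29 cells. The log2 change was -0.28 (SE 0.44) at E5.5 and 0.01 (SE 0.33) at E6.5 from E4.5, with adjusted p of 0.951 and 1 by edgeR. These errors leave room for modest changes either way.

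Trh, at chr6:92242061-92244650 on the minus strand, was lower in the E5.5 embryo and was found again at E6.5. Its CPM was 1.74 at E5.5, below every E4.5 embryo, and 49.4 and 90.6 in the E6.5 embryos, where it lay between the lowest and the second lowest E4.5 embryo. Reads were present in 2 of 38 E5.5 cells, or 5.26% (exact Clopper-Pearson 95% interval 0.644 to 17.7%, for counting error only), and in 28 of 29 E6.5 cells. At 50000 reads per cell, the expected share of cells with a Trh read was 76.3%, 4.01% and 73.9% in order of stage, and without that adjustment the shares were 87.5%, 5.26% and 96.6%. On both scales E5.5 stood far below the other stages, while the order of E4.5 and E6.5 changed with the adjustment. That adjustment equalises reads only. Epiblast-like cells had reads on a median of 5860 genes at E5.5, 6429 to 7421 in the E4.5 embryos, and 9269 and 9057.5 at E6.5. The part of this in the E5.5 values of Trh and the other genes was not tested. The E5.5 change from E4.5 was -6.42 (SE 1.05, adjusted p = 0.0205 by edgeR). Without E4.5 embryo 1 or embryo 3 it no longer passed, with adjusted p of 0.0514 and 0.0561, and without embryo 5 it was 0.00195. The rise from E5.5 to E6.5, 5.21 (SE 1.01), did not pass at adjusted p = 0.0704 by edgeR. DESeq2 gave 3.33e-08 and edgeR without E4.5 embryo 5 gave 0.00564. Over all 51 E5.5 cells without the endoderm markers, Trh had 1.10 CPM, with all its reads in the 2 epiblast-like cells.

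Aire was lower at E6.5 than at either earlier stage. Its CPM was 91.3 at E5.5, inside the E4.5 range, and 1.01 and 0.233 in the E6.5 embryos. Reads were present in 32 of 38 E5.5 cells and 6 of 29 E6.5 cells, and at 50000 reads per cell the expected shares were 72.5% and 4.95%. The change was -0.99 (SE 0.80, adjusted p = 0.753) from E4.5 to E5.5, and -7.26 (SE 0.94, adjusted p = 0.00534) from E5.5 to E6.5, both by edgeR. From E4.5 to E6.5 it was -8.26 (SE 0.92, adjusted p = 0.000443 by edgeR). Aire, at chr10:78030022-78043610 on the minus strand, overlaps Dnmt3l on the opposite strand by 67 bases of exon, 1.75% of its own exon length, and Smart-seq2 reads carry no strand. Dnmt3l, a cofactor of the de novo DNA methyltransferases, had 486 ± 161 CPM (SD, n = 5) at E4.5, 52.1 CPM at E5.5 and 9.88 ± 4.47 CPM (n = 2) at E6.5. In E4.5 endoderm-like cells, Dnmt3l had 211 ± 102 CPM (n = 5) and Aire at most 2.41 CPM. The part of Dnmt3l reads in the Aire counts was not tested.

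Morc1 was lower in the E5.5 embryo and lower again at E6.5. It had 8.57 CPM at E5.5, with reads in 14 of 38 cells, and 0 reads in both E6.5 embryos. A count of 0 in 29 cells allows a share of up to 10.3% by the limit of 3 counts, and of up to 11.9% by the exact interval. The E5.5 value lay far below every E4.5 embryo and the E6.5 value was lower again. From E4.5 to E5.5 the change was -5.57 (SE 0.66, adjusted p = 0.00417 by edgeR). Against a floor of 3 counts over the E6.5 cells, it was at least 5681.7-fold lower than at E4.5 (adjusted p = 1.48e-06 by edgeR) and at least 124-fold lower than at E5.5 (adjusted p = 0.000287 by edgeR). In the mesoderm-like cells of E6.5 embryo 2, 4 Morc1 reads were found, all in 1 cell. Morc1 lies at chr16:48431237-48630900 on the plus strand.

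Slc7a3 fell from E4.5 to E6.5 but had reads in all cells. It had 368 CPM at E5.5 and 130.1 and 230.1 CPM at E6.5, in 38 of 38 and 29 of 29 cells. All 3 later values lay below the mean of the E4.5 embryos, 617 ± 204 CPM (SD, n = 5), and the E6.5 values below every E4.5 embryo. The change was -0.75 (SE 0.49, adjusted p = 0.647) at E5.5 and -1.89 (SE 0.39, adjusted p = 0.0233) at E6.5 from E4.5, by edgeR. This call is the least firm of the 5: adjusted p was 0.0507 without E4.5 embryo 1, 0.0554 without E4.5 embryo 3, and 0.26 and 0.0799 without E6.5 embryo 1 or 2, where the lone embryo left was assumed to vary like the others. It was also lost by limma (-1.58, adjusted p = 0.0599), and with cells chosen by marker thresholds, which put E4.5 endoderm-like cells among the epiblast cells, the change was 0.10. Slc7a3 lies at chrX:101079210-101086020 on the minus strand.

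Exoc3l fell from E4.5 to E6.5. It had 17.5 CPM at E5.5 and 2.15 and 4.89 CPM at E6.5. Every later value lay below the lowest E4.5 embryo, 36.9 CPM. Reads were present in 24 of 24, 13 of 38 and 10 of 29 cells at the 3 stages. The change was -3.51 (SE 1.01, adjusted p = 0.228) at E5.5 and -5.94 (SE 0.85, adjusted p = 0.00208) at E6.5 by edgeR. At E5.5 it was past the threshold with DESeq2 (adjusted p = 0.000815) and without E4.5 embryo 4 (0.0459 by edgeR). Exoc3l, at chr8:105289924-105296101 on the minus strand, shares stretches of at least 50 bases and 95% identity with transcripts of 143 other genes, 88 of which are in the table. The stretches lie in 3 of its 7 transcripts and cover at most 533 bases of a transcript. Reads there could be split among these genes, which leaves its counts less certain, and how far was not tested.

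Tmsb4x had 131 CPM at E5.5 and 73.6 and 48.4 CPM at E6.5, and reads in 36 of 38 and 29 of 29 cells. The later values lay below the lowest E4.5 embryo, 246 CPM. The change was -1.85 (SE 0.67, adjusted p = 0.322) at E5.5 and -3.04 (SE 0.53, adjusted p = 0.0077) at E6.5 from E4.5 by edgeR, and the second was lost without E6.5 embryo 2 (adjusted p = 0.122). It lies at chrX:167207093-167209315 on the minus strand.

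Because E6.5 epiblast-like cells held endoderm reads, the test of E6.5 against E4.5 was repeated with only those E6.5 cells of each embryo that fell below its middle rank of summed endoderm markers, a choice made once the data were known. The same 5 genes were lower. Tmsb4x changed by -3.63 (adjusted p = 0.00192), Slc7a3 by -1.57 (adjusted p = 0.0362) and Trh by -1.39 (adjusted p = 0.232), all by edgeR. These cells had 1629.1 and 571.7 CPM of endoderm markers in embryos 1 and 2. Chosen likewise for the trophectoderm markers, which then summed to 64.3 and 11.8 CPM, the E6.5 cells gave the same 5 genes, with Slc7a3 at -1.95 (adjusted p = 0.00671 by edgeR) and Tmsb4x at -3.65 (adjusted p = 0.000597 by edgeR). From E5.5 to E6.5, Aire and Morc1 were lower with either choice. The Trh change was 5.02 with fewer endoderm reads (adjusted p = 0.0843 by edgeR) and 5.20 with fewer trophectoderm reads (adjusted p = 0.0486 by edgeR).

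Between lineages at E6.5, values could be compared within embryo 1, since its 13 endoderm-like cells and 15 epiblast-like cells came from 1 animal. Embryo 2 had only 2 endoderm-like cells and did not enter the test. In endoderm-like cells of embryo 1, Igfbp2 had 419 CPM against 808 CPM in the epiblast, well above the 0 to 9.63 CPM of E4.5 endoderm-like cells. These cells also had reads of 9 of 9 epiblast markers, 371 CPM in sum against 1776.2 CPM in the epiblast-like cells, and the part of these in the value was not tested. Trh had 6.04 against 49.4 CPM and Slc7a3 26.4 against 130.1 CPM, both lower in the endoderm. Tmsb4x had 106 against 73.6 CPM. For scale, the ratio of endoderm-like to epiblast-like CPM in this embryo was 0.519 for Igfbp2, 0.122 for Trh, 0.203 for Slc7a3 and 1.43 for Tmsb4x, and 0.133 for the epiblast marker Pou5f1 and 3.28 for the endoderm marker Ttr. Aire and Exoc3l, low in both lineages, had 0.267 and 0 CPM in endoderm and 1.01 and 2.15 CPM in epiblast, and Morc1 had 0 reads in both. In the 2 endoderm-like cells of embryo 2, the ratios were 0.793 for Igfbp2, 1.55 for Trh, 0.451 for Slc7a3 and 1.08 for Tmsb4x, and Pou5f1 stood at 0.627. Exoc3l, with 7 reads in 1 of these cells, had 5.64 against 4.89 CPM there, a ratio of 1.15.

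In the test, edgeR called 0 of 7 genes lower or higher in E6.5 endoderm-like cells, where 0.0205% of 14640 genes, 3 in all, were lower. At an unadjusted p under 0.05 by edgeR there were 3 of the 7 and 125 of all 14640 genes. By DESeq2, 0 of the 7 were called. DESeq2 called 2 genes in all. The change was -0.95 (SE 0.73) for Igfbp2, -3.04 (SE 1.19) for Trh, -2.31 (SE 0.83) for Slc7a3, 0.51 (SE 0.99) for Tmsb4x and -1.88 (SE 1.24) for Aire, each with an adjusted p of 1 by edgeR with the embryo as a block. Exoc3l, with 0 endoderm-like reads in embryo 1 and so no fitted fold to give, had the lowest unadjusted p of the 7 by edgeR, 0.00125. Errors this wide leave large differences possible. The fit had 4 residual degrees of freedom and the contrast rested on 1 embryo. Those degrees of freedom came from the E4.5 pairs of lineages, the contrast on which the genes were chosen. No spread of the lineage difference at E6.5 was measured.

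**Figure D4:**
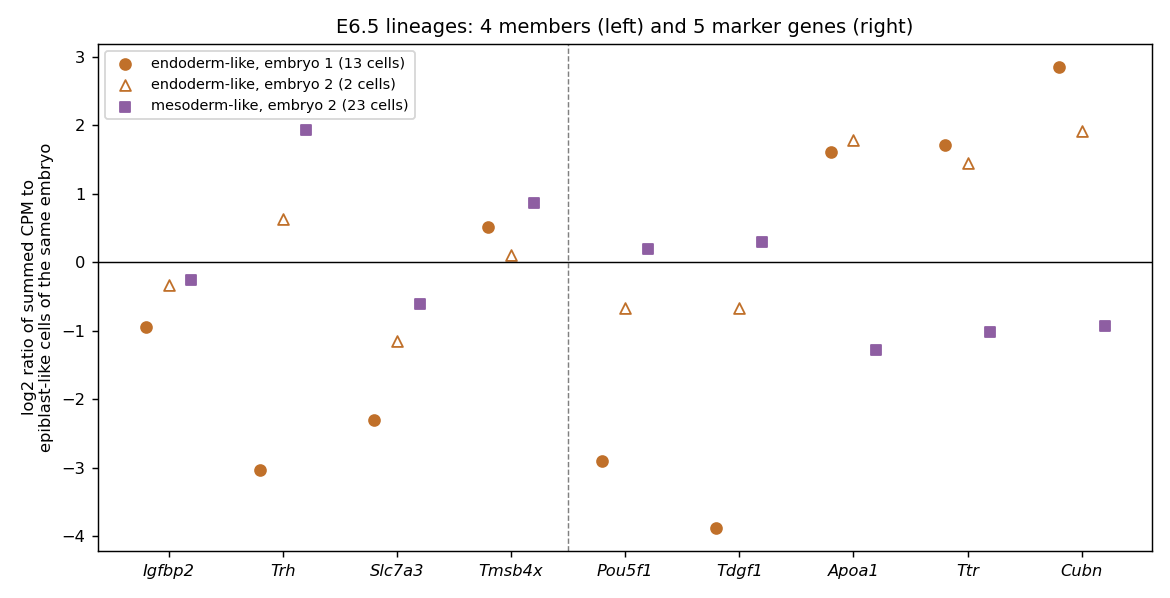
Log2 ratio of the summed CPM of endoderm-like or mesoderm-like cells to the epiblast-like cells of the same E6.5 embryo, for 4 of the genes and 5 markers. In embryo 1 Trh lies near Pou5f1 (ratios 0.122 and 0.133) and Tmsb4x is above 1 (1.43); in the mesoderm-like cells of embryo 2, Trh is 3.81 times its epiblast-like level.

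In the 23 mesoderm-like cells of E6.5 embryo 2, Trh had 345 CPM against 90.6 CPM in the epiblast-like cells of that embryo, 3.81 times as much. The mesoderm-like cells existed in this embryo alone, and the difference was not tested. Igfbp2 had 674 CPM, 0.836 times its epiblast level, Slc7a3 150.0 CPM, 0.652 times, and Tmsb4x 88.5 CPM, 1.83 times. Exoc3l had 1.44 CPM and Aire 0. In this cluster 7 of 8 mesoderm markers were raised, and also 5 of 9 epiblast and 5 of 13 endoderm markers. Its endoderm markers summed to 1490.3 CPM, against 2842.3 CPM in the epiblast-like cells of embryo 2. The part of these reads in the ratios was not tested. At E5.5, the 8 cells with endoderm markers had 21.2 CPM of Igfbp2, 0.256 CPM of Slc7a3 and 0 reads of Trh, Aire, Exoc3l, Morc1 and Tmsb4x. The 13 other E5.5 cells left unnamed had 524 CPM of Igfbp2, 356 CPM of Slc7a3, 248 CPM of Tmsb4x and 116 CPM of Aire, against 618, 368, 131 and 91.3 CPM in the epiblast-like cells of the stage. They had 3.15 CPM of Morc1, against 8.57, and 0 reads of Exoc3l and Trh, against 17.5 and 1.74 CPM. Their endoderm markers summed to 3.70 CPM. These 13 cells had reads on a median of 3039 genes at a median of 2135515 reads. The epiblast-like cells of the stage had reads on 5860 genes at 1274436 reads. The part of this difference in the values of the 13 cells was not tested.

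The relatives of the 7 genes were taken from lists of their families and pathways. Of 81 genes in 7 lists (insulin-like growth factors and their receptors and binding proteins, processing of thyrotropin-releasing hormone, Aire relatives, the exocyst, the MORC family, SLC7 transporters and actin monomer binding), 61 could be tested between stages. None was called at E5.5 against E4.5 or at E6.5 against E5.5 by edgeR (4 and 5 at an unadjusted p under 0.05, 1 and 0 by DESeq2, 1 and 1 by limma), where 0.315% and 0.142% of all genes were called lower and 0.120% and 0.0300% higher. At E6.5 against E4.5, edgeR called 2 lower and 0 higher, where 1.74% and 0.690% of all genes were. At an unadjusted p under 0.05 there were 5 and 13, DESeq2 called 5 and 3, and limma 2 and 10. The numbers of all genes called by DESeq2 and limma are given with the alternative settings below. No such number is given for the unadjusted counts, and nothing is read from any of these counts. The median log2 change of each list in this comparison was 2.23 for the growth factor list (10 tested), 1.11 for hormone processing (7), -0.63 for Aire relatives (7), 0.13 for the exocyst (11), -0.07 for the MORC family (3), -0.45 for SLC7 transporters (10) and 0.14 for actin monomer binding (13), against 0.08 over all genes. Slc7a1, a transporter of cationic amino acids like Slc7a3, had 86.3 ± 17.2 CPM (SD, n = 5) at E4.5, 5.88 CPM at E5.5 and 7.21 ± 2.05 CPM (n = 2) at E6.5, a change of -3.70 (SE 0.61, adjusted p = 0.00564 by edgeR). Tmsb10, the beta thymosin next of kin to Tmsb4x, had 669.8 ± 138, 463 and 294 ± 28.2 CPM, a change of -1.30 (SE 0.29, adjusted p = 0.0333 by edgeR). In the test of E6.5 lineages edgeR called 0 of 69 (0 at an unadjusted p under 0.05, 0 by DESeq2), and limma called 3 lower and 5 higher. Over the 15461 genes tested by limma, 58.2% of its calls were lower, and their number is given with the alternative settings below. Nothing is read from these counts.

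Among the partners with the highest E4.5 level in each list, the receptors Igf1r and Igf2r, which bind the growth factors that Igfbp2 binds, had 9.67 ± 14.3 and 23.3 ± 25.5 CPM (SD, n = 5) at E4.5 and 33 ± 5.86 and 44 ± 1.13 CPM (n = 2) at E6.5, and neither change passed (adjusted p = 0.631 and 0.779 by edgeR).  The receptor Trhr, which binds the hormone that Trh encodes, had no read in any epiblast-like sum (named after its values were seen). Morc3, like Morc2a one of the MORC genes with a clear level, had 92.3 ± 32.3, 179.6 and 34.6 ± 18.2 CPM at the 3 stages and was not called (adjusted p = 0.168 for E6.5 against E4.5 by edgeR). Actb, the actin that thymosins bind, had 7123.5 ± 925 CPM at E4.5 and 10668.5 ± 922 CPM at E6.5 (adjusted p = 0.135 by edgeR).

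For reference, of 15 genes of naive pluripotency, 7 were lower at E5.5 and 9 at E6.5 against E4.5, where 0.315% and 1.74% of all genes were, with median changes of -6.11 and -4.82. From E5.5 to E6.5, edgeR called 1 of the 15 higher, Esrrb, and 0 lower (4 and 2 at an unadjusted p under 0.05, 3 and 2 by DESeq2), where 0.0300% and 0.142% of all genes were, with a median of 0.91. Nanog, named after its values were seen, had 102 ± 36.3, 4.68 and 81.1 ± 16.3 CPM in order of stage. Tfcp2l1 (128, 2.34 and 21.7 CPM), Esrrb (79.3, 0.0200 and 7.14 CPM), Tbx3, Nr0b1, Klf5, Klf2 and Tet2 were also lowest at E5.5. Zfp42, Klf4, Dppa3 (189, 65.5 and 3.12 CPM) and Fgf4 (115, 44 and 4.43 CPM) were lowest at E6.5. Tcl1, Nr5a2 and Prdm14 had 0 CPM at both later stages. The part of the single E5.5 embryo in this was not tested. These comparisons use the same embryos as those of the 7 genes. Of 14 formative genes, edgeR called 1 higher at E5.5 and at E6.5 against E4.5, Dnmt3b (2.34, adjusted p = 0.0102, and 1.98, adjusted p = 0.002), where 0.120% and 0.690% of all genes were. At an unadjusted p under 0.05 there were 2 and 4, and 1 and 2 by DESeq2 and by limma.

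Over 15 groups of embryo and lineage, the genes most like each of the 7 in mean log2(CPM + 1), among 14633 genes, were as follows. Igfbp2 was most like Phc1 (Pearson's r = 0.970), Rasgrp2 (0.969) and 1700019D03Rik (0.967). Trh was most like Itpk1 (0.949), Crocc (0.930) and Gjc1 (0.927). For Aire they were Gdf3 (0.968), an epiblast marker of the list used to name clusters, Calml4 (0.951) and Gm10324 (0.938). For Exoc3l they were Zp3 (0.987), Sept1 (0.975) and Plekha4 (0.969), and for Morc1 Ubd (0.993), Sept1 (0.979) and Ddx58 (0.977). Slc7a3 was closest to Tdgf1 (0.989), the co-receptor of Nodal and another epiblast marker, Bcat1 (0.977) and Ctbp2 (0.967). Tmsb4x was closest to 1700019D03Rik (0.949), L1td1 (0.948) and Bcat1 (0.939). These are descriptions. The groups share embryos, and 10 of the 15 are the E4.5 epiblast-like and endoderm-like groups on which the 7 genes were chosen, so high r between them and with epiblast markers is largely set by that choice. Between the 7 genes themselves, r ran from 0.43 for Trh with Aire to 0.97 for Exoc3l with Morc1.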

How the data were processed

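The authors deposited counts, whole numbers of reads per gene without normalization, for 264 cells and 22084 genes. Per the submitters' processing notes, reads were trimmed with Trim Galore, aligned to GRCm38 with HISAT2 2.1.0 and counted with featureCounts; the annotation is not given in the sources used here. Gene names came from GENCODE vM21, which named 21907 genes, and unused columns numbered 0. CPM and log2(CPM + 1) were computed here.

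Cells with at least 50000 reads and 2000 genes were kept. Clusters were made per stage with scanpy 1.11.5 (2000 genes of highest variance, 20 components, 15 neighbours, resolution 0.5), leaving out 19 genes including the 7. They were named for marker lists. Doublets were not called. With other seeds, the same partition was found in 20, 19 and 7 of 20 runs at the 3 stages. Reads were summed per embryo and cluster, with at least 3 cells, and fitted in edgeR 4.0.16 (quasi-likelihood test, TMM, default filter, Benjamini-Hochberg, threshold 0.05) in R 4.3.3. Summed reads have embryos, not cells, as replicates. In the E6.5 lineage test embryo was a block, since both lineages come from 1 animal (E4.5 pairs correlated at 0.02 to 0.12). P-values rest on the spread between these embryos, fitted over all stages together. In the E6.5 lineage test that spread came from the E4.5 pairs alone. DESeq2 1.42.0, limma 3.58.1 and other settings were alternatives.

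The members, lists and markers were chosen with earlier results of these data known. Named genes were the 7, the 3 most alike by r, and, of each list, the 2 highest at E4.5 and those called. Sequences are from RefSeq. Reads carry no molecular identifiers, so intervals and floors cover counting error only. Near-identical stretches were searched with blastn 2.17.0.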

Additional observations from a re-analysis of the deposited data

Results flagged for a closer look

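Dixon's test at the 95% level was applied to the 5 E4.5 embryos in 28 sets of values, the same reads on the CPM and the log2 scale, and 10 values stood apart. Chance gives about 1 in 20 among independent sets, which these are not, and 4 of the 10 are a single value above 0 beside zeros, which always stands apart. In epiblast-like cells, on the mean log2(CPM + 1) scale, these were Trh in embryo 5 at 2.62 (next 5.94), Exoc3l in embryo 4 at 4.5 (next 7.15) and Slc7a3 in embryo 4 at 8.0 (next 9.21). In endoderm-like cells, they were Igfbp2 in embryo 1 at 9.63 CPM (next 2.55), Tmsb4x in embryo 1 at 96.3 CPM (next 10.8), Morc1 in embryo 5 at 8.82 CPM (next 1.78), Trh in embryo 5 at 0.434 CPM and 0.19 on the log2 scale, and Exoc3l in embryo 4 at 0.558 CPM and 0.26 on the log2 scale, the last 2 genes being at 0 in the other embryos. The E4.5 endoderm markers summed to 2146.1 CPM in the epiblast-like cells of embryo 5, the highest of the 5 embryos. Their part in these values was not tested.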

How the results depend on the processing

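The numbers of genes called differed by over 1.5 times between tools and settings, and the direction of 4 of the 7 genes changed in a comparison of stages where cells were chosen by marker thresholds, a setting that puts 47 E4.5 endoderm-like cells among the epiblast cells. There, from E4.5 to E5.5, Igfbp2 was 1.23, Aire 0.56 and Slc7a3 0.77, and to E6.5 Trh was 0.47 and Slc7a3 0.10. Values too near 0 to have a direction were Tmsb4x to E5.5 by those thresholds (0.01) and Igfbp2 from E4.5 to E6.5 (0.01, with -0.16 to 0.12 when an embryo was left out and -0.26 with the block). For E5.5 against E4.5, 58 genes were called, against 476 by DESeq2, 813 by limma, 475 by marker thresholds, 128 with no filter, and 25 to 82 with an embryo left out; 2 of the 7 were lower, and 1 to 3 with an embryo left out (fewest without E4.5 embryos 1 and 3, with 25 and 32 genes called). For E6.5 against E4.5, 324 were called, against 1009 by DESeq2, 1614 by limma, 752 by marker thresholds, 578 with no filter and 108 to 422 with an embryo left out; 5 of the 7 were lower, 4 by limma (without Slc7a3), 3 by marker thresholds and 3 to 5 with an embryo left out (128 genes called without E6.5 embryo 1, 108 without E6.5 embryo 2). With a replicate block by embryo number, shared only by name (r -0.03 and 0.01), 550 were called and Trh passed (-1.65, adjusted p = 0.0373 by edgeR). For E6.5 against E5.5, 23 were called, against 187 by DESeq2, 515 by limma, 529 with these 2 stages alone, 35 with all E5.5 cells but those with endoderm markers, 95 by marker thresholds, 71 with no filter, 37 with the E6.5 cells of fewer trophectoderm reads and 15 to 46 with an embryo left out; 2 of the 7 were lower, 1 by marker thresholds, and Trh was the 1 higher by DESeq2, in 2 stages alone, with the E5.5 or E6.5 cells just named and with no filter, and 0 to 1 with an embryo left out (46 genes called without E4.5 embryo 5, 15 without E6.5 embryo 2). For the E6.5 lineages, 3 were called, 6 with sums of 2 cells, 9 at resolution 0.8, 617 by limma, 0 with no replicate block, 25 with a stricter filter on cells and 2 to 3 with an embryo left out, and 0 of the 7 in each. The share of calls that were lower was 72.4% at E5.5 (DESeq2 86.6%, limma 15.9%), 71.6% at E6.5 against E4.5 (limma 22.4%) and 82.6% at E6.5 against E5.5 (DESeq2 43.3%, limma 52.4%). With limma the median change over all genes tested was 0.23 at E5.5 and 0.46 at E6.5, both against E4.5. Resolution 0.3 gave no E6.5 epiblast-like cluster, marker thresholds could not be used for the lineages, the comparisons with E5.5 had no value without its embryo, and the lineage test had none without E6.5 embryo 1. Limits include 1 embryo at E5.5, 2 at E6.5, mixed Y-linked reads in E4.5 embryo 5 and the endoderm reads in E6.5 cells. Only 7 of 20 seeds gave the same E6.5 clusters, and no test was repeated under another seed.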

Other observations

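Of the 8 cells of E6.5 embryo 2 in the unnamed cluster, 1 had 3404.6 CPM of Trh, the next 44.6 CPM, which set the 776 CPM of the summed reads. In the 8 unnamed cells of embryo 1 the highest had 132 CPM and the next 36.5.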
